A study of Homo sapiens with 4 samples.

Results

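SETD5, ZMIZ1, JADE1 and NFRKB are 4 of the 9667 genes over which RNA crosslinked to protein was measured by FLASH-seq in RPE1 cells, an immortalised line of human retinal pigment epithelium. In this assay ultraviolet light joins protein to RNA, a biotinylated protein is captured with streptavidin, its RNA is cut short by RNase I, and what remains attached is sequenced. The design asks whether CFAP20, a protein known from cilia, binds RNA. Every library came from cells with an inducible Cas9 (iCas9), the p53/puro double knockout and a CFAP20 knockout. The control group (CFAP20-KO, 2 libraries) was that line, and the other group (tagged-CFAP20, 2 libraries) was the same line expressing FLASH-BIO-CFAP20, so a wild-type line is not part of the comparison. The promoter of the tagged gene, the number of clones and whether replicates were separate cultures are not stated in the labels. A p-value therefore measures the spread among 4 libraries only, and that spread may be technical. The 4 genes were chosen by their summed signal in these same libraries, and their own difference between the groups is therefore described and not tested.

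All 4 genes encode nuclear proteins that act on chromatin or on transcription. SETD5 is a SET-domain protein found with the NCoR-HDAC3 corepressor and the PAF1 elongation complex. ZMIZ1 is a PIAS-like coactivator with a MIZ zinc finger, known as a partner of NOTCH1 and of the androgen receptor. JADE1, also called PHF17, is a PHD-finger scaffold that directs the HBO1 acetyltransferase to nucleosomes, and NFRKB is a subunit of the INO80 chromatin remodelling complex. The assay reads the RNA of these genes and not their proteins.

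The deposited values are a normalised read signal in bins of 200 bp from each gene start. Within a library all values were whole multiples of a single step, taken as 1 read touching a bin. Dividing by the step gave what is called read overlaps here. A read overlapped 1.41 bins on average, so overlaps are more numerous than reads. The CFAP20-KO libraries held 27634 and 11801 overlaps in the windows used and the tagged-CFAP20 libraries 497343 and 402582. A single overlap was worth 83.0 and 276.88 signal units in CFAP20-KO and 12.85 and 13.93 in tagged-CFAP20. Depth thus separated the groups completely, and its part in the results was not tested. Summed over all genes, the signal was 2001355 ± 172356 (SD, n = 2) in tagged-CFAP20 and 920583 ± 228345 (SD, n = 2) in CFAP20-KO, a ratio of 2.174. The 7 bins over CFAP20 coding sequence held 36 and 38 overlaps in tagged-CFAP20 and 0 in both CFAP20-KO libraries. Of the pigment epithelium markers, MITF had 31 and 21 overlaps and OTX2 26 and 34 in tagged-CFAP20, RPE65 had 4 and 2 and RLBP1 1 and 0. In CFAP20-KO, MITF had 5 and 0, and OTX2, RPE65 and RLBP1 had 0 in both libraries. The collagen gene COL1A1, a mesenchymal marker, had 24 and 10 in CFAP20-KO and 329 and 176 in tagged-CFAP20. The blood gene CD3E and the liver genes ALB and TTR were at 0 in all 4 libraries, and SPI1 had 1 overlap in a single library. The neuronal gene SNAP25 had 11 and 15 in tagged-CFAP20 and 0 in both CFAP20-KO libraries. At the depth of CFAP20-KO, that 0 does not show that SNAP25 RNA was absent. RNA abundance was not analysed here, so more RNA of a gene, more cells that transcribe it and more crosslinking per RNA cannot be told apart.

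The sequences below are those of the bins with the most tagged-CFAP20 overlaps in each gene, chosen after the values were seen and without bins that hold untranslated sequence. Bins close to a fuller bin, shown or left out, were also passed over, and such a neighbour may hold as many overlaps as a bin shown. The sequences are shown as the densest bins of SETD5, JADE1 and NFRKB that passed these rules. In JADE1 the bin with the most overlaps, 2 and 4 in coding exon 9, was left out. The reason is that 73 of its bases are untranslated in a protein-coding transcript. In ZMIZ1 all exons within the window are untranslated, so only an intron bin could be shown; its bin with the most overlaps, 8 and 6, touches exon 3. They were read from the hg38 reference on the strand of the gene, 5′ to 3′, with exon bases in capitals and intron bases in lower case.
SETD5 exon 7 end (chr3:9435819-9436018, plus strand): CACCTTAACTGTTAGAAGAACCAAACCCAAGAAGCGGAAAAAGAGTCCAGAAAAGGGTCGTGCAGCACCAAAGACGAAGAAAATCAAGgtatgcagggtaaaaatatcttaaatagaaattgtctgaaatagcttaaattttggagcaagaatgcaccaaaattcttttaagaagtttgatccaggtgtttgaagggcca
SETD5 exon 8 start (chr3:9440419-9440618, plus strand): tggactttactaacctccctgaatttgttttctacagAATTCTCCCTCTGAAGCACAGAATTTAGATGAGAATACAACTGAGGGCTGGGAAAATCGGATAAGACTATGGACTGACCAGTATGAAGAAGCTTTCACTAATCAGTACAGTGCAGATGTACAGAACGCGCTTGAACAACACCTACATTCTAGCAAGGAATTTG
ZMIZ1 intron 4 start (chr10:79162135-79162334, plus strand): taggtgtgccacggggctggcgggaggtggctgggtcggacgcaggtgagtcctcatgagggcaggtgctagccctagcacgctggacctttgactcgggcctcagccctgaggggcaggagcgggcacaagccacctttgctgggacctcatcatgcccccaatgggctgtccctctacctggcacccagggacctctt
JADE1 exon 5 start (chr4:128848923-128849122, plus strand): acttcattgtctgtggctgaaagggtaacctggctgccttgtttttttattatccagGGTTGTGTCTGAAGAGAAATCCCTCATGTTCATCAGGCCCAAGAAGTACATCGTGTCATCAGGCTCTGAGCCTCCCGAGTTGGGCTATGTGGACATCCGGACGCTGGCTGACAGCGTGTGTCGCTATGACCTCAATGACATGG
JADE1 exon 6 end (chr4:128852123-128852322, plus strand): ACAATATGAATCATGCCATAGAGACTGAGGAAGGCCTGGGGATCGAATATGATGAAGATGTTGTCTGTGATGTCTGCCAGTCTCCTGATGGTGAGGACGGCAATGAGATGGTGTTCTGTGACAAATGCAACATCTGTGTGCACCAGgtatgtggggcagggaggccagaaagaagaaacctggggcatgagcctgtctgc
NFRKB exon 10 end (chr11:129882343-129882542, minus strand): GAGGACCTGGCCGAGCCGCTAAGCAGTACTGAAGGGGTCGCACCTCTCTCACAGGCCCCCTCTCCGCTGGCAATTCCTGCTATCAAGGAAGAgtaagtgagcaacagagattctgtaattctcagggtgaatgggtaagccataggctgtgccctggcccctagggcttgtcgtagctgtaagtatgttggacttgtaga
NFRKB exon 6 end (chr11:129885343-129885542, minus strand): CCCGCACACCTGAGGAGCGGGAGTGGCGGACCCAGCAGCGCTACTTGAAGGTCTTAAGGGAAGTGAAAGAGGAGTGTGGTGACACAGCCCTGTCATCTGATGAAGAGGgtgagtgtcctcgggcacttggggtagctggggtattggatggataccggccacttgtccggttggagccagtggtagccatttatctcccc
The SETD5 bin at the end of exon 7 held 26 and 19 overlaps in tagged-CFAP20 replicates 1 and 2, and 1 in each CFAP20-KO library. It has 88 exon bases and a GC content of 38.0%. The SETD5 bin at the start of exon 8 held 18 and 14 overlaps and 0 in both CFAP20-KO libraries. The ZMIZ1 bin begins just inside intron 4, has a GC content of 66.0%, and held 7 and 6 overlaps against 0 and 0. The JADE1 bins held 3 and 2 (exon 5) and 3 and 1 (exon 6), and the NFRKB bins 4 and 4 (exon 10) and 3 and 4 (exon 6), all with 0 in CFAP20-KO. At the tagged-CFAP20 share, even the whole of JADE1 would have held 5.7 overlaps in the CFAP20-KO libraries together. A CFAP20-KO count of 0 in a single bin is therefore not read as a difference between the groups. The GC content of the whole gene stretch was 39.0% in SETD5, 55.4% in ZMIZ1, 44.2% in JADE1 and 45.1% in NFRKB, and so differed among the 4.

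SETD5 (ENSG00000168137.15, chromosome 3, start 9397719, plus strand, 80.4 kb) carried signal in all 4 libraries. The summed signal was 3154.0 and 3599.4 in CFAP20-KO replicates 1 and 2, from 38 and 13 overlaps, and 9293.0 and 7370.7 in tagged-CFAP20, from 1252 overlaps in all. Both tagged libraries lay above both CFAP20-KO libraries, as they did in 62.7% of the 1487 genes with enough mean signal to be compared. The means were 8331.85 ± 1359.22 and 3376.7 ± 315.0 (SD, n = 2 each), a ratio of 2.467. SETD5 was among the strongest genes in both groups, at rank 4 and 5 of all genes in tagged-CFAP20 and at rank 5 and 14 in CFAP20-KO. Its share of all gene overlaps was 0.4172% in tagged-CFAP20 and 0.3907% in CFAP20-KO, libraries pooled. Per library the share was 0.4377% and 0.3922% in tagged-CFAP20 and 0.4155% and 0.3327% in CFAP20-KO, so by share the groups overlapped. With each library scaled to the same total, the ratio was 1.118.

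ZMIZ1 (ENSG00000108175.16, chromosome 10, start 79069035, plus strand) is 247.5 kb long, and its first 100 kb were within the window. The signal there was 2822.0 and 3322.6 in CFAP20-KO, from 34 and 12 overlaps, and 6992.2 and 6270.0 in tagged-CFAP20. The groups did not overlap. The means were 6631.1 ± 510.7 and 3072.3 ± 353.9 (SD, n = 2 each), a ratio of 2.158, which is close to the ratio of 2.174 over all genes together. ZMIZ1 stood at rank 11 and 10 in tagged-CFAP20 and at rank 8 and 17 in CFAP20-KO. Its share of all gene overlaps was 0.3312% in tagged-CFAP20 and 0.3524% in CFAP20-KO, and with libraries scaled to the same total the ratio was 0.984, with tagged-CFAP20 the lower. Per library the share was 0.3293% and 0.3336% in tagged-CFAP20 and 0.3717% and 0.3071% in CFAP20-KO, so by share the groups overlapped.

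JADE1 (ENSG00000077684.15, chromosome 4, start 128809623, plus strand, 65.6 kb) had no overlap in either CFAP20-KO library. In tagged-CFAP20 the signal was 912.6 and 822.1, from 71 and 59 overlaps, with a mean of 867.3 ± 64.0 (SD, n = 2). A count of 0 in the CFAP20-KO libraries allows 3 reads over both, a signal of 269.2. Against that signal the bound on the ratio was 3.222 as deposited and 1.353 with libraries scaled to the same total. The bound covers counting error only and does not allow for JADE1 having been chosen by its signal. No minimum change is therefore read from it. At its tagged-CFAP20 share, the CFAP20-KO libraries would have held 5.7 overlaps of JADE1 together. Without CFAP20-KO replicate 1 the bound was 0.743, under 1, so it rests on that library.

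NFRKB (ENSG00000170322.14, chromosome 11, start 129894442, minus strand, 30.8 kb) was likewise at 0 in both CFAP20-KO libraries. The tagged-CFAP20 signal was 886.9 and 1003.2, from 69 and 72 overlaps, with a mean of 945.04 ± 82.25 (SD, n = 2). For NFRKB the bound against the same limit was 3.511 as deposited and 1.486 after scaling to the same total, and no minimum change is read from it either. Its CFAP20-KO count at the tagged-CFAP20 share would have been 6.1 overlaps, and without CFAP20-KO replicate 1 the bound was 0.81. Of those 1487 genes, 33 were at 0 in both CFAP20-KO libraries, JADE1 and NFRKB among them, and both passed that filter through tagged-CFAP20 alone.

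**Figure D1:**
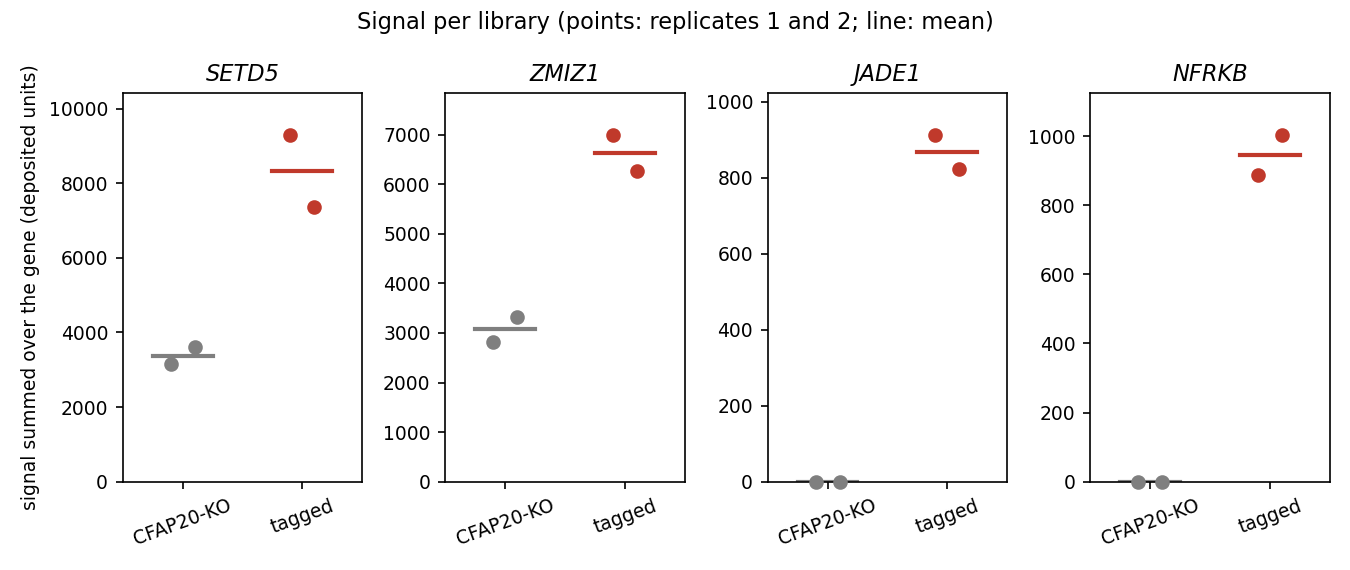
Signal summed over each gene (vertical axis from 0, in deposited units) in the 2 CFAP20-KO and 2 tagged-CFAP20 libraries, with points for replicates and a line at the mean. SETD5 and ZMIZ1 lie between 2822.0 and 3599.4 in CFAP20-KO, while JADE1 and NFRKB are at 0 there and between 822.1 and 1003.2 in tagged-CFAP20.

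Per kb of gene, the tagged-CFAP20 signal was highest in SETD5, at 103.58 ± 16.9, followed by ZMIZ1 at 66.31 ± 5.11, NFRKB at 30.68 ± 2.67 and JADE1 at 13.22 ± 0.98 (SD, n = 2 each). The libraries of neighbouring genes in this order did not overlap: 115.53 and 91.63 in SETD5, 69.92 and 62.7 in ZMIZ1, 28.79 and 32.57 in NFRKB, and 13.91 and 12.53 in JADE1. The order of SETD5 above ZMIZ1 was the same in CFAP20-KO, where SETD5 had 39.21 and 44.75 signal units per kb and ZMIZ1 28.22 and 33.23. JADE1 and NFRKB, which overlapped in summed signal, thus separated per kb.

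Along the genes, the tagged-CFAP20 overlaps were denser on exons than on introns in all 4. A bin was counted as exonic where any of its bases lay in an exon of the GENCODE canonical transcript. In SETD5, 12.9% of bins were exonic and held 57.1% (95% exact Clopper-Pearson interval 52.7 to 61.4) and 56.0% (50.8 to 61.0) of the overlaps in tagged-CFAP20 replicates 1 and 2. In CFAP20-KO, 19 of 38 overlaps of SETD5 (31.9% to 71.3%) and 6 of 13 (13.7% to 78.8%) were in exonic bins, so no difference between the groups was detectable at this depth. These intervals allow for reads that span bins and cover counting error only.

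NFRKB, a short gene with many exons, had 71.0% (56.7 to 83.4) and 72.2% (58.3 to 84.1) of its overlaps in exonic bins, which are 33.5% of its bins. JADE1 had 32.4% (19.1 to 45.9) and 42.4% (27.7 to 59.0) in 11.9% of its bins. In ZMIZ1 only exons 1 to 4, all untranslated, lay within the window, and 7.2% (4.9 to 10.3) and 6.2% (3.9 to 9.5) of overlaps fell in the 1.4% of bins that touch them. Most of what was measured in ZMIZ1 was therefore intron sequence, in CFAP20-KO as well, where 34 of 34 and 10 of 12 overlaps were intronic.

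The density on exons over that on introns, tagged-CFAP20 libraries pooled, was 8.81 in SETD5, 5.10 in ZMIZ1, 4.35 in JADE1 and 5.00 in NFRKB. The same ratio had a median of 4.53 over the 1552 genes with at least 50 tagged-CFAP20 overlaps and at least 5 exonic and 5 intronic bins, and exceeded 1 in 97.0% of them. SETD5 stood at percentile 86.3 of these genes, and the other 3 between percentiles 47.7 and 57.5. The density in introns alone was high in ZMIZ1 (9.38 overlaps per kb, percentile 95.4) and SETD5 (7.74, percentile 93.9) and near the median of 1.68 in NFRKB (1.94) and JADE1 (1.41). On exons SETD5 reached 68.17 overlaps per kb (percentile 98.9) and ZMIZ1 47.86 (percentile 97.8).

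**Figure D2:**
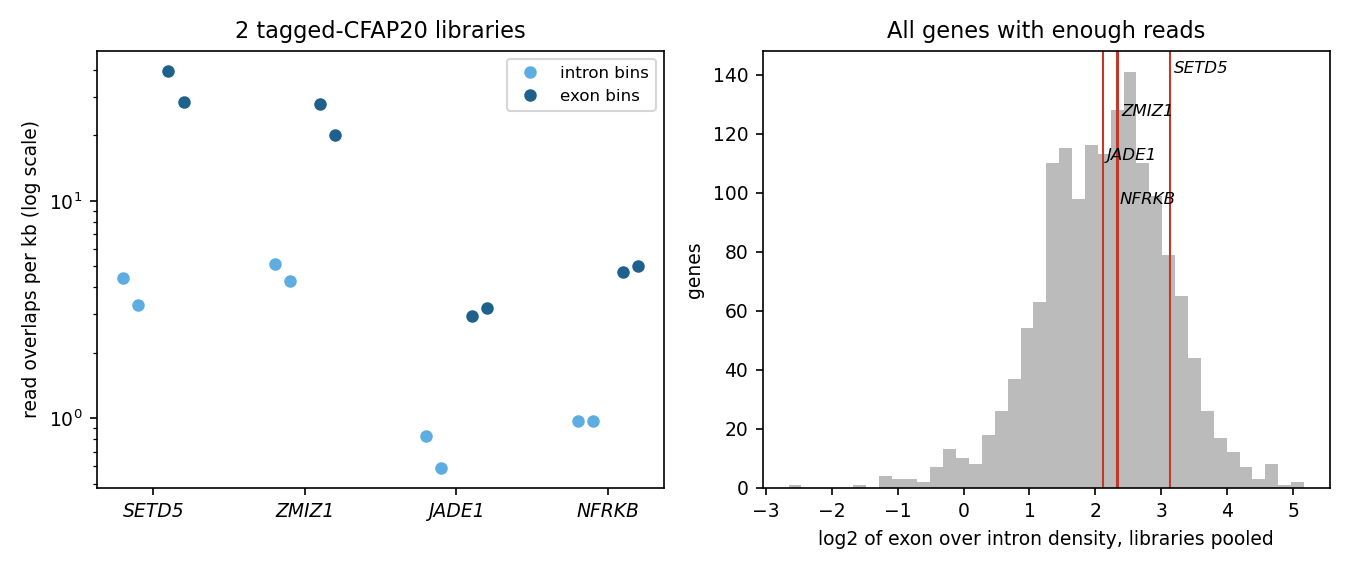
Left, read overlaps per kb (log scale) in intron and exon bins of the 4 genes, with a point for each of the 2 tagged-CFAP20 libraries. Right, histogram of the log2 ratio of exon over intron density over the genes with enough reads, with a line for each of the 4 genes; SETD5 lies toward the upper end at percentile 86.3 and the others near the middle.

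The exon share depended on how a bin at an exon edge was counted. With a bin counted as exonic where at least 50% of it lies in an exon, the pooled share was 29.63% in SETD5, 1.71% in ZMIZ1, 26.15% in JADE1 and 29.79% in NFRKB, against 56.63%, 6.74%, 36.92% and 71.63% with any overlap. The difference came from the edge bins, in which under 50% of the bases are exonic. In SETD5 these 19 bins held 53.68 and 35.26 overlaps per kb in tagged-CFAP20 replicates 1 and 2, the 33 bins with more exon sequence 31.67 and 24.55, and the 351 bins of intron alone 4.42 and 3.32. NFRKB showed the same order of values, 5.74 and 5.19 in edge bins, 3.6 and 4.8 in mostly exonic bins and 0.97 and 0.97 in intron bins. In JADE1 the edge bins (3.64 and 2.73) and the mostly exonic bins (2.68 and 3.39) changed order between replicates, and both lay above the intron bins (0.83 and 0.59). The order also changed in ZMIZ1, with 31.0 and 19.0 in its 5 edge bins, 20.0 and 22.5 in its 2 mostly exonic bins and 5.11 and 4.27 in intron bins. The mostly exonic bins take in those of the 3′ untranslated region. These were 10 bins in SETD5 (16 and 25 overlaps), 15 in JADE1 (1 and 2) and 5 in NFRKB (0 and 0). Whether the order of edge bins and mostly exonic bins holds without them was not tested. Mostly exonic bins were 33 of 403 bins in SETD5, 28 of 329 in JADE1 and 25 of 155 in NFRKB. Their density over that of intron bins, tagged-CFAP20 libraries pooled, was 7.27, 4.29 and 4.33. Over 1407 genes this ratio had a median of 4.58. SETD5 stood at percentile 73.3 of them, against 86.3 with any overlap. ZMIZ1 had too few such bins to be included.

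SETD5 was covered unevenly. The first intron, 26.5 kb long, held 37 and 43 overlaps in tagged-CFAP20, and the first 1 kb of the gene 6 and 7. The stretch from 30 to 40 kb held 202 and 160 overlaps and that from 40 to 50 kb 183 and 135. Exon 7 had the highest mean density of all SETD5 exons, 87.5 overlaps per kb of bins, from 36 and 34 overlaps, followed by exon 5 with 73.75 (39 and 20) and exon 12 with 71.25 (26 and 31). Bins of coding sequence held 50.51 and 34.23 overlaps per kb, against 8.0 and 12.5 in the bins of the 3′ untranslated region. The 10 bins with most overlaps were all exonic, where bins close to a fuller bin already picked were passed over. The pattern recurred between the tagged-CFAP20 libraries, with r = 0.83 over 403 bins, a description since the bins share exon structure and base composition.

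Up to 10 kb upstream of SETD5 there were 65 and 34 overlaps in tagged-CFAP20 and 5 and 2 in CFAP20-KO, which is a signal of 835.5 and 473.7 against 415.0 and 553.8. With 5 and 2 overlaps in CFAP20-KO, no contrast with the gene is drawn, and the groups overlapped in that stretch. The antisense gene THUMPD3-AS1 spans that stretch and the first 860 bp of SETD5, where 5 and 7 tagged-CFAP20 overlaps lay. Signal was summed without regard to strand, so RNA from the 2 genes cannot be told apart in those bins.

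ZMIZ1 was covered along all of its first 100 kb. Each stretch of 10 kb held between 36 and 101 overlaps in tagged-CFAP20 replicate 1 and between 28 and 77 in replicate 2. The first 10 kb held most, with 101 and 77, and the first 1 kb alone 22 and 17, against 0 and 0 in CFAP20-KO. The CFAP20-KO libraries held only 34 and 12 overlaps over the whole 100 kb. No difference between the groups is therefore read from the first 1 kb. Some signal was present in 77.84% of its bins with tagged-CFAP20 libraries pooled, a share at percentile 96.1 of the genes compared. Introns 1, 2 and 3 were each denser in their first part than in their last in both tagged-CFAP20 libraries. In intron 1, of 49.6 kb, the densities were 6.37 and 4.55 overlaps per kb in the first and last part in replicate 1, and 5.77 and 3.7 in replicate 2. Over all genes, 39.97% of the 1291 introns of at least 5 kb with at least 20 overlaps were denser in the first part in both libraries.

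JADE1 had no overlap in its first 1 kb or in the 10 kb upstream in any library. Its signal was spread thinly, with the most in exon 9 (4 and 12 overlaps) and none in exons 1 and 2. The bins of the 3′ untranslated region held 1 and 2 overlaps over 15 bins, and the coding bins 22 and 23 over 22 bins. The opposite-strand gene SCLT1 overlaps JADE1 from 55298 bp after its start, and 17 and 8 tagged-CFAP20 overlaps lay there. Outside that stretch JADE1 kept 54 and 51. Past the end of JADE1, still within SCLT1, there were 16 and 12 overlaps in tagged-CFAP20 and 1 in CFAP20-KO replicate 1. Summed over the whole downstream window, the pooled-read ratio of JADE1 was 11.726 (95% exact counting interval 2.062 to 467.244), which rests on that 1 CFAP20-KO overlap.

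In NFRKB the 2 tagged-CFAP20 libraries differed in where the reads lay. Replicate 1 had 35 overlaps in the first 10 kb and 8 between 20 and 30 kb, while replicate 2 had 14 and 26. The first 1 kb held 9 overlaps in replicate 1 and 0 in replicate 2. In the middle stretch, from 10 to 20 kb, they were closer, with 26 and 32. Exon 10 had the highest mean density, from 7 and 8 overlaps, with exon 4 as high in replicate 1 (7 overlaps) and lower in replicate 2 (2), and exons 25 and 27 held none. Over windows of 1 kb the libraries correlated at r = 0.24 in NFRKB (31 windows), 0.43 in JADE1 (65), 0.55 in ZMIZ1 (100) and 0.89 in SETD5 (80), again as a description over windows that share gene structure. The deposited start of NFRKB lies after exon 1 of the canonical transcript, so overlaps on that exon count as upstream, where the nearest 2 kb held 9 and 1.

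**Figure D3:**
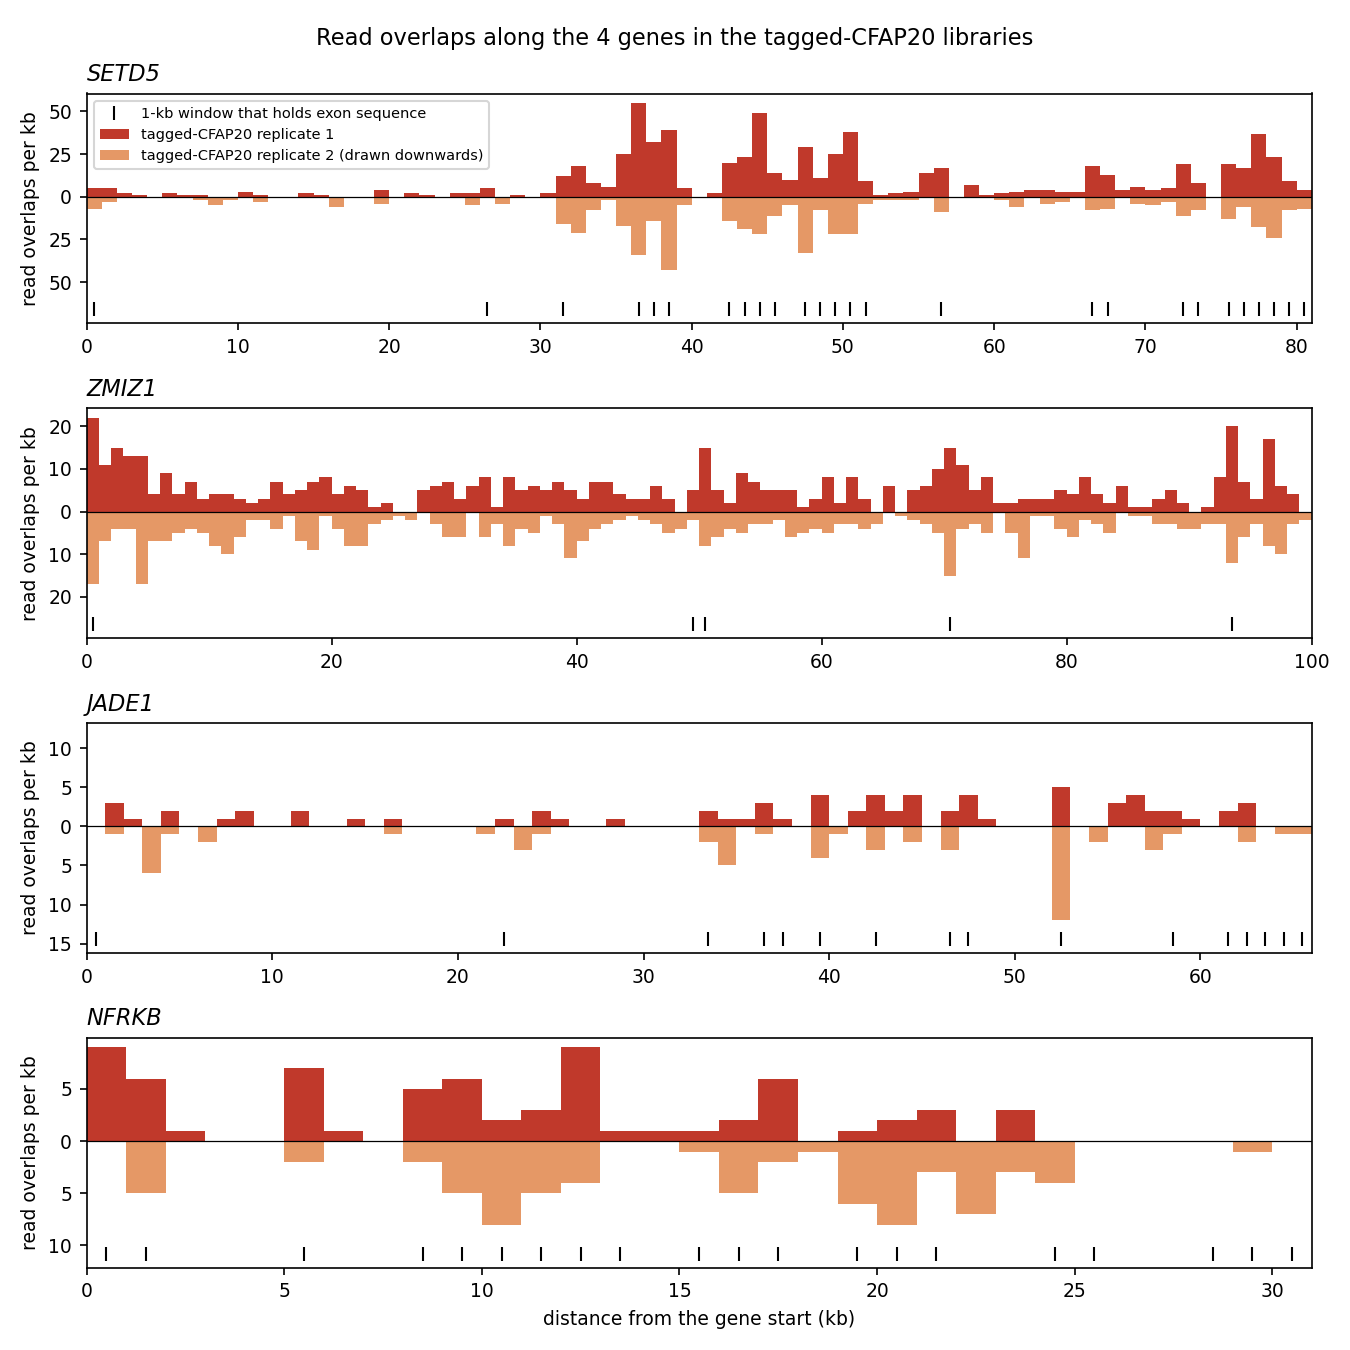
Read overlaps per kb along each gene from its start (horizontal axis, kb), with tagged-CFAP20 replicate 1 drawn upwards and replicate 2 downwards from 0; ticks mark 1-kb windows with exon sequence. SETD5 shows its highest values between 30 and 50 kb in both replicates, ZMIZ1 is covered throughout, and in NFRKB the first 10 kb are fuller in replicate 1.

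**Figure D4:**
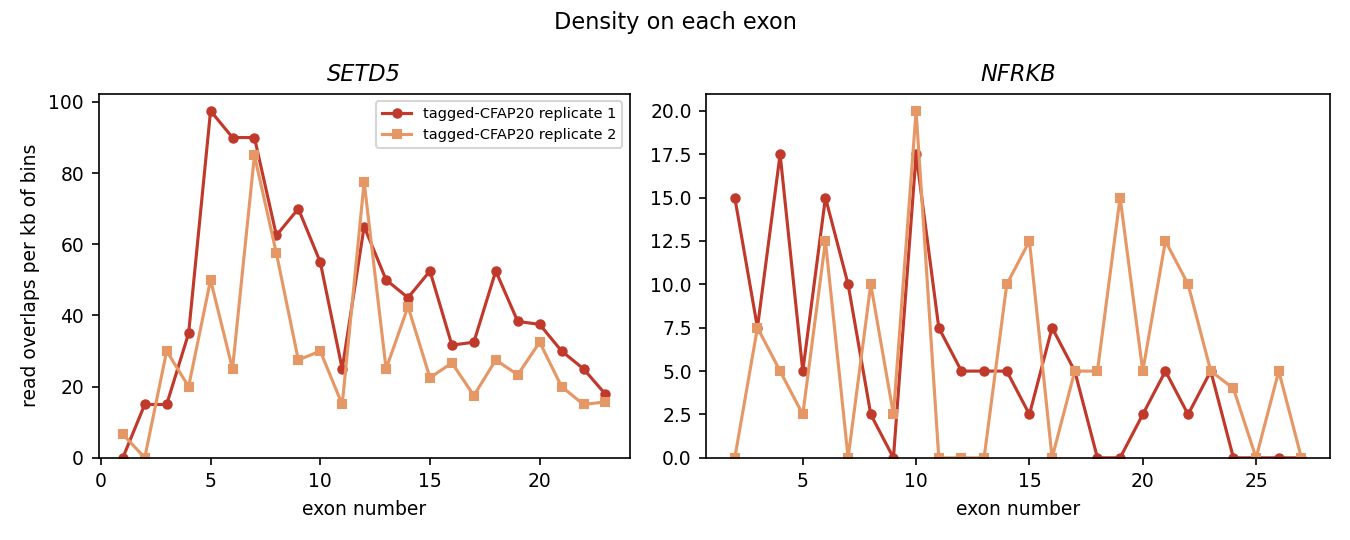
Read overlaps per kb of bins on each exon (horizontal axis, exon number in the canonical transcript) of SETD5 and NFRKB, with a line for each tagged-CFAP20 replicate; a bin that touches 2 exons counts for both. In SETD5 the highest values lie between exons 5 and 12, and in NFRKB exon 10 is highest in replicate 2 and level with exon 4 in replicate 1.

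By level in the 4 libraries, SETD5 and ZMIZ1 were close to each other: the distance between them, on the log2(signal + 276.88) scale, was 0.491, and ZMIZ1 was the nearest of all genes to SETD5. TGM2 was the nearest to ZMIZ1 at 0.4, with 2407.0 and 3876.3 in CFAP20-KO and 6568.1 and 5197.1 in tagged-CFAP20. SLC4A7 lay at 0.887 from SETD5 and EXT1 at 0.55 from ZMIZ1. JADE1 lay nearest to XYLB, at 0.056, with 0 and 0 in CFAP20-KO and 899.7 and 863.9 in tagged-CFAP20. NFRKB lay nearest to MCM3 at 0.138 and at 0.222 from JADE1. Distances were taken over 4 libraries and describe level only.

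The partners and relatives of the 4 genes were taken from lists of complexes and families, of which few members were among the genes analysed and 15 had enough signal for a test. With limma and Benjamini-Hochberg adjustment over 1487 genes, 0 of the 15 list genes and 0 genes in all (0%) passed an adjusted p of 0.05, and the smallest adjusted p was 0.0524. At an unadjusted p under 0.05, 495 genes (33.3%) were higher in tagged-CFAP20 and 2 (0.134%) lower. Of the 15 list genes, 6 were higher and 0 lower by the unadjusted measure, which is near that background. Both tagged libraries lay above both CFAP20-KO libraries in 10 of the 15, against 62.7% of all genes tested. The median log2 change over all genes tested was 0.78 as deposited and about 0 with libraries scaled to the same total. With CFAP20-KO replicate 1 left out, 51.1% of genes were called higher and 12.7% lower, and without CFAP20-KO replicate 2 72.0% and 1.0%. List genes called were then 10 higher and 2 lower, and 10 higher and 0 lower. In those fits the lone control library is assumed to vary like the tagged pair.

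JADE2, a paralogue of JADE1 and likewise a scaffold of HBO1, was the single tested gene of the 11 others in the acetyltransferase list. It had 0 overlaps in both CFAP20-KO libraries and 71 and 43 in tagged-CFAP20, a signal of 912.6 and 599.1. The bound for JADE2 was 2.808 as deposited but 0.648 without CFAP20-KO replicate 1, and the gene entered the test through tagged-CFAP20 alone. At its tagged-CFAP20 share, the CFAP20-KO libraries would have held 5.0 overlaps of JADE2 together. ACTR8, an INO80 subunit like NFRKB, was the single tested gene of that complex and gave 166.0 and 553.8 in CFAP20-KO against 347.0 and 222.9, with overlapping groups and a log2 change of -0.12 ± 0.46 (SE, limma adjusted p = 0.87). ACTR8 had 2 overlaps in each CFAP20-KO library.

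The paralogue of ZMIZ1, ZMIZ2, gave 249.0 and 1384.4 in CFAP20-KO and 3367.6 and 2800.6 in tagged-CFAP20, a ratio of 3.776 (limma adjusted p = 0.0823). Among the other SUMO genes, PIAS4, a SUMO ligase, had a ratio of 2.701, and SAE1, a subunit of the SUMO-activating enzyme, a pooled-read ratio of 7.852 (95% exact counting interval 1.367 to 314.236) from 2 CFAP20-KO overlaps. The 3 SUMO genes tested had a median log2 change of 1.47. RBPJ, the DNA-binding factor of the Notch pathway, gave 871.8 ± 58.2 in CFAP20-KO (SD, n = 2) and 899.7 and 794.2 in tagged-CFAP20, with overlapping groups and a ratio of 0.971.

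For SETD5, 3 other SET-domain genes were tested. The histone methyltransferase KMT5B gave 166.0 and 0.0 in CFAP20-KO and 732.6 and 724.5 in tagged-CFAP20, PRDM2 had a pooled-read ratio of 4.136 (1.108 to 34.744), and SMYD2 a ratio of 1.269 with overlapping groups. Their median log2 change was 1.41. Of the corepressor and PAF1 list, LEO1 (ratio 2.042) and CTR9 (pooled-read ratio 2.932, interval 0.775 to 24.802), both subunits of PAF1, were among those 10, and TBL1X, a subunit of the corepressor, gave 83.0 and 1938.2 in CFAP20-KO against 938.3 and 794.2. The median of that list was 0.59, below that of all genes tested. Among remodellers, the SWI/SNF genes SS18 (ratio 2.25) and SMARCB1 (ratio 1.354) and ATRX (ratio 1.925) had log2 changes of 0.99, 0.50 and 0.84, with overlapping groups for SMARCB1.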

How the data were processed

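The authors deposited 1 table of signal per library, in 200-bp bins around gene starts, and the other deposited columns, of unit other, give gene position, strand and length. The submitters' processing notes name HOMER 4.8.2, R 4.0.5, Bowtie2 2.3.5 and UMI-tools 1.0.0 on hg38, without roles. For the normalization and the read length, nothing is given in the sources used here. Within a tolerance of 0.01, 100.0% of values were whole multiples of a step particular to each library. Bins from 10 kb upstream to 100 kb downstream were used, and signal was summed from gene start to end within 100 kb. Bins were placed centred on their header position, where exon sequence fitted best by a small margin. The exonic share of bases, weighted by tagged-CFAP20 overlaps, was 22.74% there. It was 21.31% with bins shifted by -100 bp and 20.23% by 100 bp. The exon densities come from these same libraries and are not independent of that check. The signal is not split by strand: over 1475 pairs, overlaps seen through an opposite-strand neighbour's window matched the gene's own (r of 0.958 to 0.998 per library). A gene absent from 1 table was given 0 there, since 462 of 462 such genes had no read when seen through a neighbour's window. Of 9667 genes, 9478 matched GENCODE 44 symbols. The tables also hold 1 column that fits no sample label, which was not used.

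Limma 3.58.1 in R 4.3.3 (trend) was run on log2(signal + 276.88), the value of 1 read overlap in the shallowest library, for genes with at least that mean signal. It was also run on simulated libraries whose groups had equal means apart from the changed genes. The groups here differ in summed signal, so nothing is concluded from that simulation. Log2 changes are on that scale and understate the change of low genes; ratios are of deposited means or pooled reads, without a pseudocount. Groups come from the sample titles. The members, lists and rule for named genes (the members, the 3 nearest genes by level to each, and the 3 tested list genes with most signal per list) were chosen with earlier results of these data known. A gene that the rule names and 1 marker gene are not reported here. Intervals and the 3-read floor cover counting error only.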

Additional observations from a re-analysis of the deposited data

How the results depend on the processing

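The count of genes called higher was 0 as reported, 40 with a pseudocount of 10 signal units, 1045 for genes above 0 in at least 2 libraries, 1678 with both, 72 with a filter at 2 read overlaps, and 171 with the replicate number as a block; leaving out 1 library gave 0 to 1136. The count called lower was 1, 3 and 1 under the looser filter, that filter with the pseudocount of 10, and the filter at 2 read overlaps, and 0 to 208 with 1 library left out. For list genes the higher count was 1 of 15 with the pseudocount of 10, against 2.7% of all genes tested. It was 3 of 20 with the looser filter, against 23.4%, and 2 of 15 with the replicate block, against 11.5%. The lower count of list genes was 0 in these fits. Leaving out 1 CFAP20-KO library changed the higher count here as well. The causes of these changes were not tested. Same-numbered libraries did not deviate together (r = -0.029 over genes). At the depth of CFAP20-KO, counting error could hide a shared deviation, so this check cannot exclude a pairing. The labels do not name a pairing, and none was used in the main fit.

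Scaled to the same total, the tagged-CFAP20 over CFAP20-KO ratio was 1.118 in SETD5 and 0.984 in ZMIZ1, and the bound was 1.353 in JADE1 and 1.486 in NFRKB. Leaving out 1 library gave bounds of 0.743 to 3.39 in JADE1 and 0.81 to 3.727 in NFRKB. In the first 3 kb, SETD5 had a pooled-read ratio of 1.675 (0.26 to 70.249) from 1 CFAP20-KO overlap, and JADE1 over the whole downstream window 11.726. JADE1 and NFRKB gave no ratio in the first 3 kb. With the exon rule of at least 50%, the exon share was 29.63% in SETD5, 1.71% in ZMIZ1, 26.15% in JADE1 and 29.79% in NFRKB. The first 2 kb held 1.6% of SETD5, 6.34% of ZMIZ1, 3.08% of JADE1 and 14.18% of NFRKB overlaps, against 6.38% of NFRKB in the first 1 kb. The shallow CFAP20-KO libraries limit what can be read from genes at 0 there.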
